A study of Rattus norvegicus with 12 samples.

Results

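The genes described here are 10 targets of the transcription factor p53: Cdkn1a, Mdm2, Plk2, Aen, Sesn1, Bbc3, Bax, Ccng1, Gadd45a and Trp53inp1. Their products act in growth arrest, DNA repair, cell death, protection against oxidative stress or feedback on p53 itself. The genes were picked by symbol, as the probes of a rat expression array whose gene name in the scanner files is one of these symbols. Trp53inp1 was found under its rat symbol, Tp53inp1. They take up 13 of the 30367 probes on the array and 10 of the 14376 genes that could be tested, since Cdkn1a, Mdm2 and Aen have 2 probes each. All 13 probes were well above background on all 12 arrays, so no member was lost to a filter on low values.

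The study stretched ventricular cardiomyocytes of newborn rats and followed their mRNA over time on 1-colour Agilent arrays, with 3 arrays in each of 4 groups. The groups were unstretched cells (control) and cells stretched for 2 h, 6 h and 24 h. All cells were cultured for 24 h in medium with 10% fetal calf serum, on silicone membranes coated with collagen type I, and the stretched plates then received a pulsatile biaxial stretch of +20%. The labels give no strain, no genetic change and, for the unstretched plates, no culture time beyond these 24 h. The same 3 control arrays enter every comparison with control. Time in culture grew with the duration of stretch, and from these labels the 2 cannot be told apart. The design text calls the 3 cultures of a group biological replicates, so p-values measure the spread between these cultures, and whether they came from separate isolations was not stated.

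p53 is a transcription factor that is held at a low level by the ubiquitin ligase Mdm2, and it accumulates when cells meet DNA damage or other stress. Its targets stop the cell cycle (Cdkn1a, Gadd45a, Ccng1), trigger apoptosis (Bax, Bbc3, Aen, Tp53inp1), protect against oxidative stress (Sesn1) and feed back on p53 itself (Mdm2, Ccng1). Several of them, among them Plk2, Gadd45a and Cdkn1a, also respond to signals other than p53, and heart muscle cells leave the cell cycle soon after birth.

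Promoter sequences from RefSeq (build GRCr8) were matched by symbol for 7 of the 10 genes: Cdkn1a, Mdm2, Plk2, Aen, Sesn1, Ccng1 and Gadd45a. The p53 consensus, a pair of adjoining decamers, was searched on both strands from 250 bases before to 50 bases after the gene start, keeping the core C and G of each decamer and allowing at most 2 mismatches. A match stood in 3 of the 7 promoters, against 112 of 33469 rat promoters of the same length (0.335%). The genes were listed as p53 targets, so this comparison is a description and not a test. The 3 promoters are shown for these matches, and the 250 bases before each gene start are printed with the match in capitals. For Cdkn1a (chr20:7150682-7150931, plus strand) the match lay at bases -201 to -182 from the gene start with 1 mismatch. For Aen (chr1:142224283-142224532, plus strand) it lay at bases -30 to -11 with 2 mismatches, and for Ccng1 (chr10:25684877-25685126, minus strand) at bases -242 to -223 with 1 mismatch. At most 1 mismatch was met in 17 of the 33469 promoters (0.0508%).
Cdkn1a: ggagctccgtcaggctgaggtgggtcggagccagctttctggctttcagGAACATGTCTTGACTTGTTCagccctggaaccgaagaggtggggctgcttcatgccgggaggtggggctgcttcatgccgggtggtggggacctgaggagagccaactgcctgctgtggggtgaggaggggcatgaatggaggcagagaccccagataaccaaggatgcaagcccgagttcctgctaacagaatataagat
Aen: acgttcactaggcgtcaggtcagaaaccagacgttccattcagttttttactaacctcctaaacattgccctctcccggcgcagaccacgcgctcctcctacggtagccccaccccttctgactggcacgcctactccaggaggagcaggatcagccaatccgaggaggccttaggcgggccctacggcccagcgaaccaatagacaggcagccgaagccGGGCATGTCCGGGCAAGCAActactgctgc
Ccng1: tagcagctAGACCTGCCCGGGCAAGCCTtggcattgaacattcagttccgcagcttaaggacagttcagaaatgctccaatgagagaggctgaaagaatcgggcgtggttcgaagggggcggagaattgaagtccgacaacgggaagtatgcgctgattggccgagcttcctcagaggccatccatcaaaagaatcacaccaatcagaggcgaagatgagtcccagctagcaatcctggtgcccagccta
The promoter of Plk2 (chr2:43702286-43702535, plus strand) is printed because Plk2 changed most of the 10 genes, and it held no such p53 match in this window. It did hold TGACGTCA, the cyclic AMP response element, at bases -66 to -59 from the gene start, in capitals here. TGACGTCA reads the same on both strands and stood in 612 of the 33469 promoters (1.83%), and it was looked for after the sequence had been seen.
Plk2: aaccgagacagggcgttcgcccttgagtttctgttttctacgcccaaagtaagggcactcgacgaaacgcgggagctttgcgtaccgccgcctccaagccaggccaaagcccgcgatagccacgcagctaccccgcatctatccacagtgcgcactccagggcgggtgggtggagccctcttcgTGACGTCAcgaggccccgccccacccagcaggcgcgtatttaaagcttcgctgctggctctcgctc
A match is a description of these letters and does not show that a factor binds there.

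After 24 h of stretch all 10 genes differed from control past the test, 8 of them higher and 2 lower. The 24 h and control arrays lay on different slides, and 5 of the 10 genes were called with the slide as a fixed block. Plk2 rose most, to 2.46 times control, followed by Aen, Mdm2, Gadd45a and Bax at between 1.43 and 1.62 times control. Bbc3, Tp53inp1 and Ccng1 rose by smaller amounts, Sesn1 fell, and Cdkn1a fell on its brighter probe (not with spike-in scaling) while its other probe rose. At 2 h and 6 h fewer genes had moved: 2 of 10 at 2 h (Plk2 higher, Sesn1 lower) and 4 of 10 at 6 h (Plk2, Mdm2 and Aen higher, Sesn1 lower). Expression was tested with limma on log2 intensities after each array was scaled to its 75th percentile, and a gene is called at an adjusted p (Benjamini-Hochberg over all 14376 genes) below 0.05.

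These counts stand against a wide background. The 10 genes were chosen with earlier results of these data known, so the comparison with all genes is a description and not a test. Of all genes tested, 9.34% were called at 2 h, 16.9% at 6 h and 47.9% at 24 h. By direction, 3.1% of all genes were called higher at 2 h, 4.88% at 6 h and 16% at 24 h, while 6.25%, 12% and 31.9% were called lower. The median change of the 10 genes was 0.07 on the log2 scale at 2 h, 0.19 at 6 h and 0.44 at 24 h, and that of all genes was -0.01, -0.05 and -0.08. The 3 arrays of stretched cells did not overlap with the 3 control arrays for 5 of the 10 genes at 2 h (28.5% of all genes), 8 at 6 h (39.5%) and 10 at 24 h (58.8%). The moderated F test over the 4 groups called all 10 genes, and 52.8% of all genes. Between the times, 3 of the 10 genes were called at 6 h against 2 h, all higher (10.6% of all genes were called, 3.71% higher and 6.87% lower). At 24 h against 6 h 7 were called, 6 higher and 1 lower (24.9% of all genes, 9.71% higher and 15.2% lower), and at 24 h against 2 h all 10, 8 higher and 2 lower (48.3%, 18% and 30.2%).

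**Figure D1:**
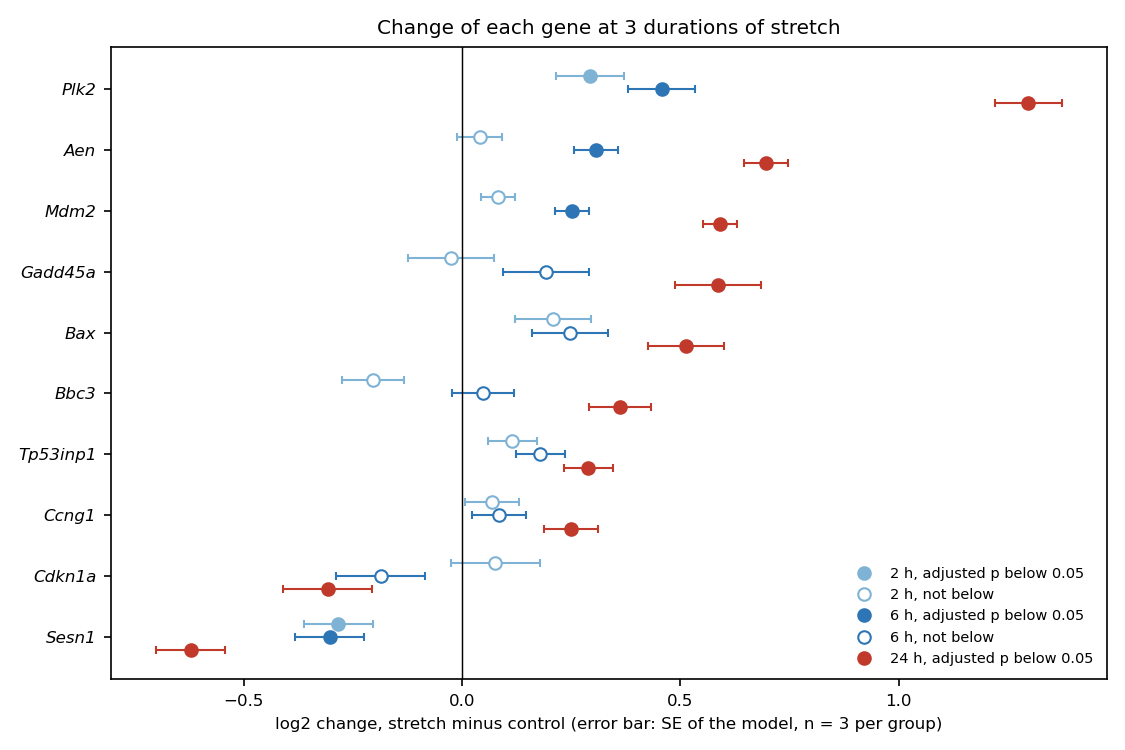
Log2 change against control (horizontal axis) of the 10 genes at 2 h, 6 h and 24 h of stretch, with the SE of the model (n = 3 arrays per group); filled points have an adjusted p below 0.05. Plk2 lies furthest to the right at 24 h (1.30), Sesn1 furthest to the left (-0.62), and the point of Cdkn1a stands for its brighter probe, whose change at 24 h is positive under scaling to spike-in controls.

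The higher and lower split of all genes depended on the scaling, that of the 8 rising genes did not. With each array scaled to its median, 38.8% of all genes were called higher at 24 h, and with scaling to spike-in controls 38.4%, against 16% in the analysis used here. Quantile normalization gave 23.2%. The members called higher at 24 h numbered 8 under each of these scalings, but Cdkn1a was not called with array median scaling (-0.11, adjusted p = 0.375) and turned to 0.12 with spike-in scaling, again without a call (adjusted p = 0.593). With spike-in scaling Sesn1 stayed lower without a call (-0.19, adjusted p = 0.382). A second limit is the slide: all control and 2 h arrays lay on 1 slide and all 24 h arrays on another, with the 6 h group on both (2 arrays and 1 array). With the slide as a fixed block, 5 of the 10 genes were called at 24 h, namely Plk2, Mdm2, Aen, Sesn1 and Tp53inp1 (14.2% of all genes were called).

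Plk2 encodes a polo-like kinase that acts at centrosomes and in the response to stress. Its probe lies on chromosome 2 (rn4, the build of the array annotation, 41805560 to 41805752, plus strand, a span that crosses an intron) and begins at base 1970 of the transcript. The probe is printed because the largest change of the 10 genes rests on it.
Plk2 probe: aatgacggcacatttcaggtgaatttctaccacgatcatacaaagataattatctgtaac
Its scaled intensity was 893.4, 897.1 and 819.3 in control cells, 1104, 1023 and 1069 after 2 h, 1189, 1169 and 1221 after 6 h and 2189, 2362 and 1883 after 24 h. The 3 arrays of every group lay apart from those of every other group, in the order of time. The log2 change against control was 0.29 ± 0.08 at 2 h (SE, adjusted p = 0.0385), 0.46 ± 0.08 at 6 h (adjusted p = 0.00377) and 1.30 ± 0.08 at 24 h (adjusted p = 1.05e-06). The call at 2 h was lost in 16 of the 27 other settings tried, with a log2 change between 0.25 and 0.44 over all settings, and those at 6 h and 24 h were lost in none of the settings tried. Plk2 was higher at 24 h than at 6 h by 0.84 ± 0.08 (adjusted p = 3.64e-05), while 6 h and 2 h did not pass the test (0.16 ± 0.08, adjusted p = 0.191). With the slide as a block the 24 h change was 1.25 (adjusted p = 9.51e-04), and within the second slide the 3 arrays of 24 h lay 0.81 above the single array of 6 h.

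Mdm2, the ubiquitin ligase that marks p53 for degradation, has 2 probes on the minus strand of chromosome 7 (rn4, 56996880 to 56996939 for the brighter and 57005501 to 57005835 for the dimmer one). The brighter probe read 1242, 1263 and 1289 in control cells, 1383, 1298 and 1337 after 2 h, 1513, 1508 and 1498 after 6 h and 1896, 1926 and 1892 after 24 h. The groups lay apart at every time, and the arrays of 1 group differed by little: the SD at 24 h was 18.6 on a mean of 1905 (n = 3). The log2 change was 0.08 ± 0.04 at 2 h, which did not pass the test (adjusted p = 0.227), 0.25 ± 0.04 at 6 h (adjusted p = 0.00276) and 0.59 ± 0.04 at 24 h (adjusted p = 2.00e-06, 1.51 times control). The dimmer probe read 293.3, 305.6 and 306.5 in control cells, 355.9, 330.6 and 345.4 after 2 h, 326.2, 346.6 and 345.2 after 6 h and 452.6, 435.3 and 395.3 after 24 h. On it too all stretched arrays lay above control, with 2 h and 6 h level, and only the 24 h change was called when every kept probe was tested on its own (0.50, adjusted p = 8.94e-05).

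Aen, an exonuclease that is induced in apoptosis and cuts DNA and RNA, followed the same course as Mdm2. Its brighter probe (chromosome 1, rn4, 134625307 to 134625366, plus strand) read 4337, 4228 and 4316 in control cells, 4270, 4265 and 4727 after 2 h, 5564, 5166 and 5213 after 6 h and 6897, 7092 and 6876 after 24 h. Control and 2 h overlapped, and the 6 h and 24 h arrays lay apart above them. The log2 change was 0.04 ± 0.05 at 2 h (adjusted p = 0.677), 0.31 ± 0.05 at 6 h (adjusted p = 0.00375) and 0.70 ± 0.05 at 24 h (adjusted p = 3.59e-06, 1.62 times control). The dimmer probe (134624078 to 134624137) rose at 24 h by 0.54 (adjusted p = 1.30e-04), with 666.6, 639.8 and 656.0 after 24 h, against 442.9, 418.2 and 492.6 in control cells. The 24 h arrays lay above control on this probe as well, and with the slide as a block Aen and Mdm2 kept their 24 h calls (0.74, adjusted p = 0.00174, and 0.60, adjusted p = 0.00143).

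**Figure D2:**
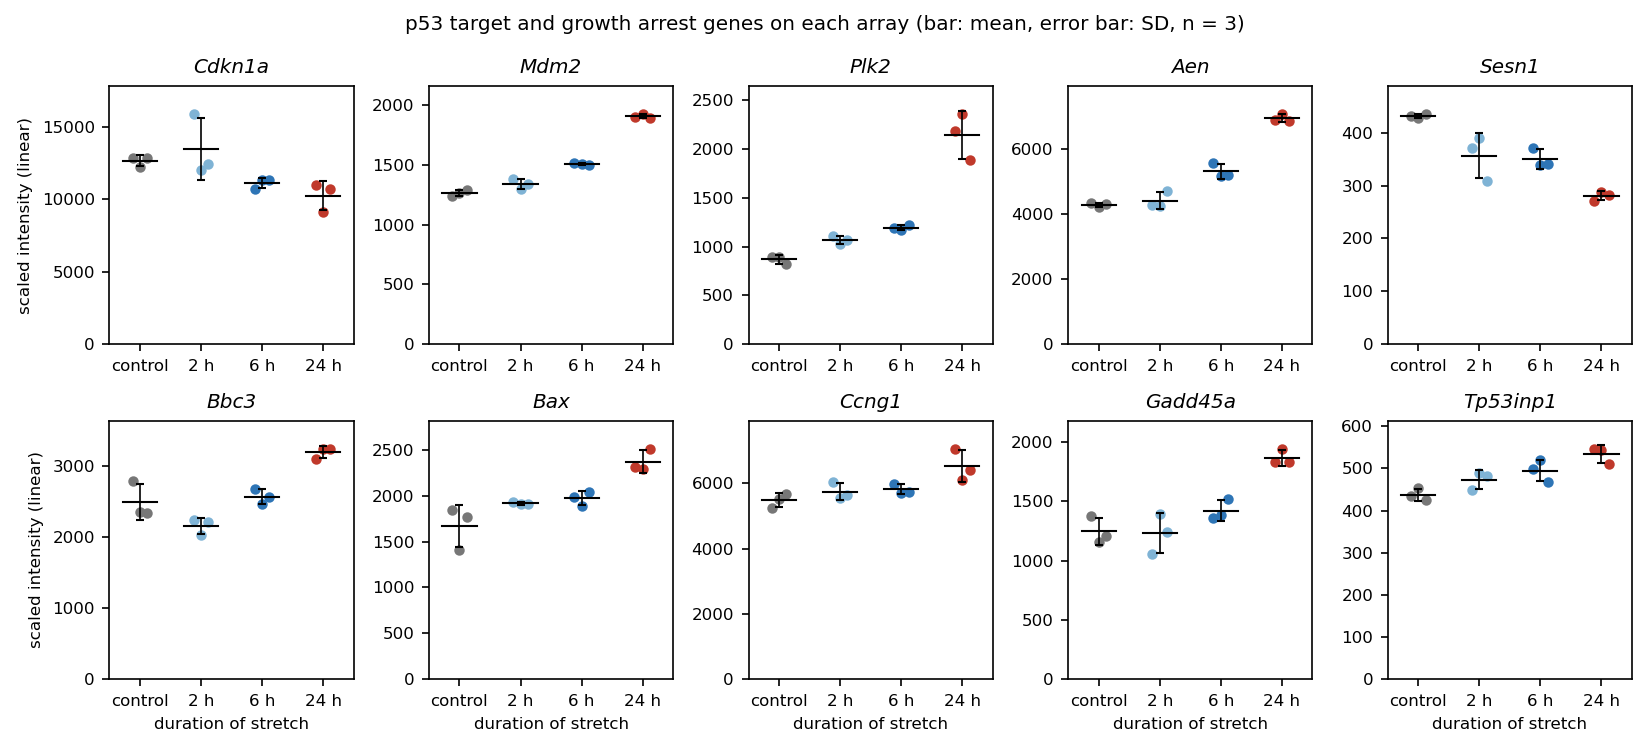
Scaled intensity (linear vertical axes from 0) of the 10 genes on each of the 12 arrays, by duration of stretch; points are arrays, bars the mean and error bars the SD of 3 arrays, and Cdkn1a, Mdm2 and Aen are shown by their brighter probe. The 24 h arrays lie apart from control in all 10 panels, above it in 8 and below it for Sesn1 and, other than with spike-in scaling, Cdkn1a.

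Of the genes that trigger apoptosis at mitochondria, Bbc3 (Puma, a BH3-only protein) and Bax (a pore-forming member of the BCL-2 family) both rose at 24 h. Neither changed past the test at 2 h or 6 h in the analysis used here, but some other settings called such a change. Bbc3 read 2779, 2352 and 2341 in control cells, 2241, 2027 and 2204 after 2 h, 2666, 2466 and 2567 after 6 h and 3088, 3242 and 3237 after 24 h. All 3 arrays of 2 h lay below control, those of 6 h overlapped with control and those of 24 h lay above. The log2 changes were -0.20 ± 0.07 (adjusted p = 0.104), 0.05 ± 0.07 (adjusted p = 0.692) and 0.36 ± 0.07 (adjusted p = 0.00199). The 2 h fall was called in the authors' deposited table (-0.31, adjusted p = 0.0129), and a 6 h rise with spike-in scaling (0.50, adjusted p = 0.0244). Bbc3 also differed between times: it was higher at 6 h than at 2 h by 0.25 (adjusted p = 0.0485) and higher at 24 h than at 2 h by 0.57 (adjusted p = 1.33e-04).

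Bax read 1840, 1410 and 1764 in control cells, 1934, 1908 and 1912 after 2 h, 1987, 1889 and 2039 after 6 h and 2311, 2287 and 2516 after 24 h. The control arrays were the most spread of the 4 groups (SD 229.5 on a mean of 1671), and every stretched array lay above all of them. The log2 change was 0.21 ± 0.09 at 2 h (adjusted p = 0.173), 0.25 ± 0.09 at 6 h (adjusted p = 0.0783) and 0.51 ± 0.09 at 24 h (adjusted p = 8.24e-04). The 6 h change was called in 4 other settings. These were array median scaling (0.34, adjusted p = 0.0249), spike-in scaling (0.70, adjusted p = 0.00348), the authors' deposited table (0.26, adjusted p = 0.0345) and the fit without the first control array (0.32, adjusted p = 0.0385). Without the second and lowest control array the changes were the smallest of all settings: 0.09 at 2 h, 0.129 at 6 h and 0.395 at 24 h. With the slide as a block the 24 h changes of Bax (0.44, adjusted p = 0.105) and Bbc3 (0.36, adjusted p = 0.107) were not called. The array annotation gives no rn4 position for either probe.

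Tp53inp1, a nuclear and autophagy protein that promotes p53-dependent apoptosis, rose in small steps. It read 433.5, 453.5 and 423.9 in control cells, 448.5, 489.7 and 482.2 after 2 h, 498.4, 518.8 and 467.4 after 6 h and 547.2, 544.4 and 510.1 after 24 h. Control and 2 h overlapped, the 6 h and 24 h arrays lay above control, and the 24 h arrays overlapped with those of 6 h. Its log2 change was 0.12 ± 0.06 at 2 h (adjusted p = 0.240), 0.18 ± 0.06 at 6 h (adjusted p = 0.0533) and 0.29 ± 0.06 at 24 h (adjusted p = 0.00190). The 6 h change was called in 9 of the 27 other settings, and the 24 h change kept its call with the slide as a block (0.41, adjusted p = 0.0217).

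Among the genes of growth arrest, Gadd45a (a stress sensor that binds cell cycle and DNA repair proteins) rose at 24 h. It read 1376, 1157 and 1210 in control cells, 1058, 1394 and 1242 after 2 h, 1362, 1385 and 1522 after 6 h and 1830, 1947 and 1829 after 24 h. The control, 2 h and 6 h arrays overlapped, and the 24 h arrays lay above all others. Its log2 change was -0.03 ± 0.10 at 2 h (adjusted p = 0.909), 0.19 ± 0.10 at 6 h (adjusted p = 0.207) and 0.59 ± 0.10 at 24 h (adjusted p = 7.31e-04). With the slide as a block it was 0.44 at 24 h and not called (adjusted p = 0.131).

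Ccng1 (cyclin G1, which recruits a phosphatase to Mdm2) read 5249, 5529 and 5683 in control cells, 6057, 5544 and 5654 after 2 h, 5992, 5709 and 5747 after 6 h and 7072, 6102 and 6418 after 24 h. The 2 h arrays overlapped with control, and the 24 h arrays lay above all the others. Its log2 change at 24 h was 0.25 ± 0.06 (adjusted p = 0.00720), the smallest of the 8 rises, and with the slide as a block it was 0.28 and not called (adjusted p = 0.151). At 2 h and 6 h the change was 0.07 and 0.08 (adjusted p = 0.547 and 0.383).

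Sesn1, a sestrin that limits oxidative stress and restrains mTORC1, went the other way. It read 430.9, 428.1 and 435.8 in control cells, 370.3, 390.3 and 308.1 after 2 h, 370.9, 338.8 and 340.5 after 6 h and 271.2, 288.3 and 282.2 after 24 h. All stretched arrays lay below control, 2 h and 6 h overlapped with each other, and the 24 h arrays were lowest. Its log2 change was -0.28 ± 0.08 at 2 h (adjusted p = 0.0477), -0.30 ± 0.08 at 6 h (adjusted p = 0.0249) and -0.62 ± 0.08 at 24 h (adjusted p = 1.22e-04), 0.65 times control. The call was lost in 20 of the 26 other settings at 2 h and in 10 of 26 at 6 h, and with spike-in scaling the 6 h change was positive (0.15). Its single probe is spotted once (chromosome 20, rn4, 45876719 to 45876778, plus strand).

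Cdkn1a (p21), the inhibitor of cyclin-dependent kinases that is the best known effector of p53 in growth arrest, gave opposite answers on its 2 probes. The brighter probe (chromosome 20, rn4, 7385536 to 7385595, plus strand, beginning at base 641 of the transcript) read 12860, 12240 and 12870 in control cells, 15900, 12030 and 12420 after 2 h, 10730, 11300 and 11350 after 6 h and 10970, 9111 and 10690 after 24 h. The 6 h and 24 h arrays lay below control, and the first 2 h array stood above all others. The log2 change was 0.08 ± 0.10 at 2 h (adjusted p = 0.693), -0.19 ± 0.10 at 6 h (adjusted p = 0.238) and -0.31 ± 0.10 at 24 h (adjusted p = 0.0288). The 24 h call was lost in 6 other settings, among them the slide as a block (-0.35, adjusted p = 0.255), and the change was positive in 3 more.

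The other Cdkn1a probe (7386596 to 7386655) begins 1048 bases further towards the 3′ end of the transcript and is spotted once. It read 7129, 7446 and 7583 in control cells, 8184, 7798 and 7693 after 2 h, 8570, 8859 and 9288 after 6 h and 13530, 10660 and 12320 after 24 h. All stretched arrays lay above control, in the order of time. Tested with every kept probe on its own, it rose by 0.27 ± 0.08 at 6 h (adjusted p = 0.0440) and by 0.71 ± 0.08 at 24 h (adjusted p = 5.97e-05, 1.64 times control). The mean of both probes changed by 0.20 at 24 h (adjusted p = 0.0665).

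The log2 ratio of the 3′ probe over the brighter one, which scaling an array by a single factor cannot move, was -0.85, -0.72 and -0.76 in control cells, -0.96, -0.63 and -0.69 after 2 h, -0.33, -0.35 and -0.29 after 6 h and 0.30, 0.23 and 0.21 after 24 h. The 24 h ratios exceeded the control ratios by 1.02 on average, and the 6 h ratios by 0.46, with no overlap between groups (exact two-sided permutation test, p = 0.1 each, the smallest that 3 against 3 arrays allow, and 0.18 after adjustment over the 9 such comparisons made). Among the 720 genes with at least 2 called probes at 24 h, 24 (3.33%) had probes called in both directions, and Cdkn1a was 1 of these. The array annotation assigns the brighter probe to the RefSeq and 1 Ensembl transcript and the 3′ probe to the RefSeq transcript alone. The ratio shows unequal change of the 2 stretches of sequence, and its cause was not tested. For Mdm2 and Aen the corresponding ratio differed from control at 24 h by -0.09 and -0.16. The Aen ratios at 24 h did not overlap with control either (exact two-sided permutation test, p = 0.1, and 0.18 after adjustment). The same held for Mdm2 at 2 h (0.11) and 6 h (-0.08, exact two-sided permutation test, p = 0.1 each), but not at 24 h (exact two-sided permutation test, p = 0.3). Lack of overlap was thus not particular to Cdkn1a, whose differences at 6 h and 24 h were larger.

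**Figure D3:**
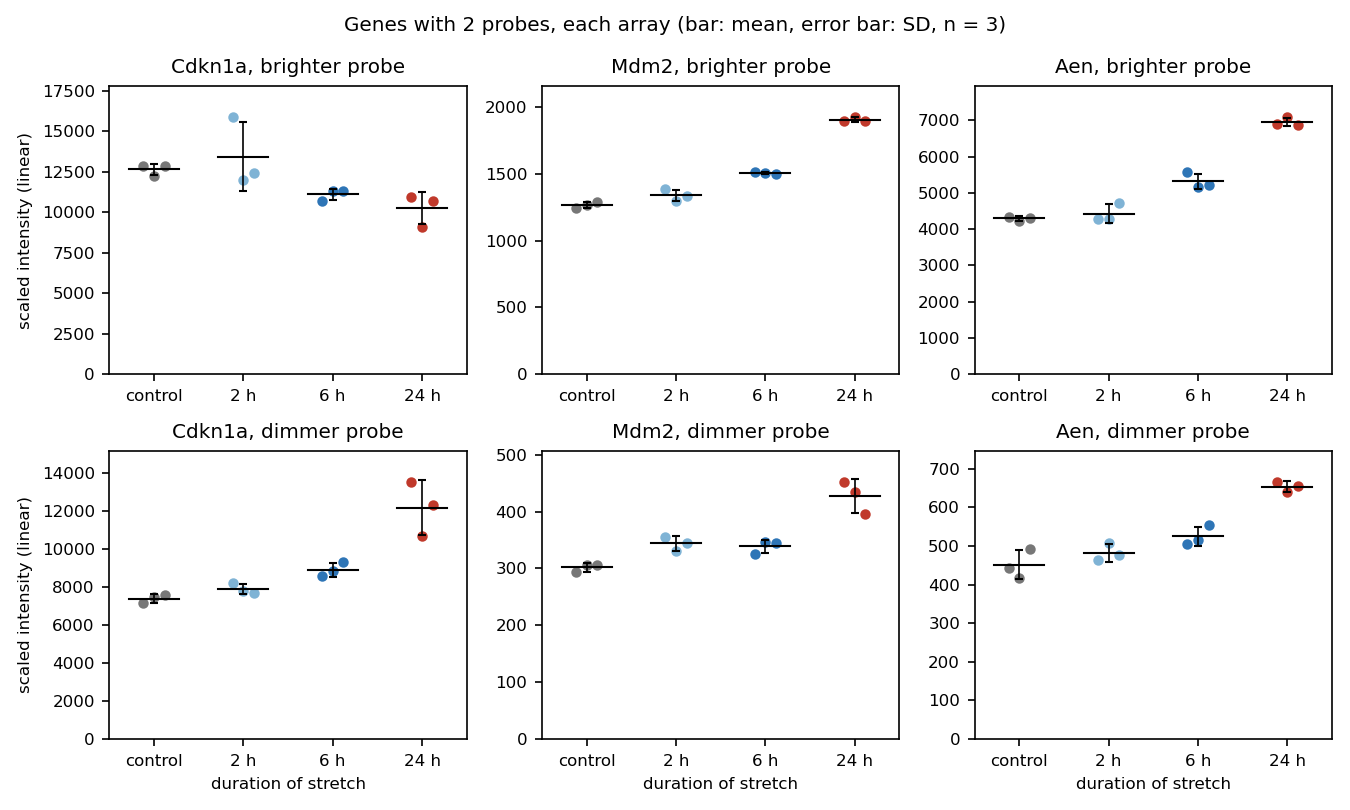
Scaled intensity (linear vertical axes from 0) of the brighter (top) and dimmer (bottom) probe of Cdkn1a, Mdm2 and Aen on each array, by duration of stretch; points are arrays, bars the mean and error bars the SD of 3 arrays. Both probes of Mdm2 and Aen are highest at 24 h, while the Cdkn1a probes part, the brighter lying below control at 24 h (above it with spike-in scaling) and the dimmer above it.

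Across the 12 arrays, which share their groups and scaling, the genes that rose most were also the most alike, which is given as a description. Pearson's r between Mdm2 and Aen was 0.980, between Mdm2 and Plk2 0.975 and between Plk2 and Aen 0.953 (n = 12 arrays). Sesn1 ran against them, with r of -0.897 to Plk2 and -0.879 to Mdm2. Of all genes tested, those most like Plk2 were RGD1563049 (r = 0.988), Procr, the endothelial protein C receptor (0.986), and Cttnbp2nl (0.983). Most like Mdm2 were Ran, the GTPase of nuclear transport (0.992), Rcl1 (0.991) and Bop1 (0.985), both ribosome assembly factors. Aen was most like Mdm2 itself, Ran and Lyar (0.979), and Bbc3 most like Mrpl53 (0.961), FQ231120 (0.960) and Tardbp (0.960).

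The split of the genes that regulate p53 depended on the scaling. Of 18 tested among 23 listed regulators, none was higher and 1 lower at 2 h, 1 was higher and 1 lower at 6 h, and 3 were higher and 4 lower at 24 h, with a median log2 change of -0.03 at 24 h. At 24 h 9 were higher and 2 lower with array median scaling, 6 and 2 with quantile normalization and 8 and 0 with spike-in scaling. Cdkn2a, whose locus encodes p16 and the Mdm2 inhibitor Arf, rose by 0.98 ± 0.22 at 24 h (adjusted p = 0.00373; 0.65 without control replicate 2), and Tp53rkb, a p53-regulating kinase, by 0.40 (adjusted p = 4.28e-05). Mdm4, the partner of Mdm2 that represses p53, was lower at 2 h (-0.38, adjusted p = 0.00479), at 6 h (-0.28, adjusted p = 0.00923) and at 24 h (-0.22, adjusted p = 0.00991), but its 6 h and 24 h changes were positive with spike-in scaling. Tp63, a p53 relative, was lower at 24 h by a log2 change of -0.43 (adjusted p = 6.51e-04). Tp53inp2, a relative of Tp53inp1, did not pass the test at 24 h (-0.14, adjusted p = 0.116).

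Further p53 targets were called in both directions. Of 37 tested among 45 listed, 2 were higher and 2 lower at 2 h, 2 higher and 7 lower at 6 h, and 12 higher and 8 lower at 24 h, with a median of 0.05 at 24 h. The 24 h count was 20 higher and 3 lower with array median scaling, 15 and 4 with quantile normalization and 21 and 1 with spike-in scaling. The largest rises at 24 h were those of Gdf15, a stress cytokine of the TGF-beta family (1.65 ± 0.12, adjusted p = 2.82e-06, 3.13 times control), Btg2, an antiproliferative protein (0.86 ± 0.07, adjusted p = 7.36e-06), and Epha2, an ephrin receptor (0.69 ± 0.07, adjusted p = 3.93e-05). Btg2 was also higher at 2 h (0.44, adjusted p = 0.00585) and at 6 h (0.32, adjusted p = 0.0122). The lowest at 24 h were Spata18, a mitochondrial quality factor (-1.30 ± 0.41, adjusted p = 0.0236, a call lost in 3 of 12 fits without 1 array), Dram1, an autophagy regulator (-0.57, adjusted p = 2.26e-04), and Sulf2, a heparan sulfatase (-0.33, adjusted p = 3.18e-04, positive with spike-in scaling). Ckap2, a spindle protein, was lower at 2 h (-0.37, adjusted p = 0.00259) and higher at 24 h (0.26, adjusted p = 0.00193).

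Of 22 tested growth arrest genes and CDK inhibitors other than the members, 2 were higher and 3 lower at 2 h, 1 higher and 4 lower at 6 h, and 4 higher and 10 lower at 24 h. Gadd45g, a relative of Gadd45a, rose by 1.09 ± 0.14 at 24 h (adjusted p = 1.65e-04) and by 0.51 at 6 h (adjusted p = 0.0349), and Gadd45b by 0.31 at 2 h (adjusted p = 0.0396). The CDK inhibitor Cdkn2b rose by 0.43 at 24 h (adjusted p = 7.02e-04). Ccng2, the relative of Ccng1, was lower at 24 h (-0.56, adjusted p = 2.28e-05), and so were Rbl2 (p130, -0.38, adjusted p = 1.28e-04) and the CDK inhibitor Cdkn2c (-0.38, adjusted p = 0.00663), whose changes were positive with spike-in scaling. The 24 h count was 7 higher and 3 lower with array median scaling, 5 and 6 with quantile normalization and 7 and 0 with spike-in scaling.

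In the BCL-2 family, to which Bax and Bbc3 belong, 2 of 17 genes other than these were higher at 2 h and none lower, none was higher and 1 lower at 6 h, and 5 were higher and 4 lower at 24 h. With spike-in scaling 11 were higher and none lower at 6 h, and 7 higher and 1 lower at 24 h. That scaling called 46.2% of all genes higher at 6 h and 38.4% at 24 h. Mcl1, a survival protein, was higher at 2 h (0.39 ± 0.06, adjusted p = 0.00544). At 24 h the pore-forming Bok (0.61, adjusted p = 4.47e-05) and Bak1 (0.31, adjusted p = 6.92e-04) and the survival protein Bcl2 (0.40, adjusted p = 7.00e-04) were higher. Bcl2a1, a survival protein of white blood cells, was lower at 24 h (-1.75 ± 0.08, adjusted p = 2.13e-07), as were the BH3-only genes Bik (-0.65, adjusted p = 7.84e-05) and Bmf (-0.42, adjusted p = 0.00158, positive with spike-in scaling). Bcl2a1 and Bmf were dim, with scaled intensities of 49.73 and 90.72 on the first control array. Bcl2a1 read 13.58 on the first 24 h array, so the size of its fall is less sure.

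Of 31 genes of S phase and mitosis, which dividing cells express, 1 was higher and 7 lower at 2 h, 2 higher and 3 lower at 6 h, and 8 higher and 2 lower at 24 h. With array median scaling the counts were 1 higher and 2 lower at 2 h, 5 and 0 at 6 h and 18 and 0 at 24 h. With spike-in scaling they were 0 and 0 at 2 h, 18 and 0 at 6 h and 15 and 0 at 24 h. Of all genes, 46.2% were called higher at 6 h and 38.4% at 24 h with spike-in scaling, and 13.1% and 38.8% with array median scaling. Bub1 (-0.31, adjusted p = 0.00954), Ccnb2 (-0.27, adjusted p = 0.0176) and Ccnb1 (-0.26, adjusted p = 0.0200) were the lowest at 2 h. At 24 h Birc5 (0.48, adjusted p = 0.0462), Ccne1 (0.36, adjusted p = 4.16e-04) and Mybl2 (0.23, adjusted p = 0.0267) were higher. Without control replicate 2 the change of Birc5 was 0.22 (adjusted p = 0.0723), and its call was lost in 10 of 12 fits without 1 array. The Mybl2 call was lost in 4 of these, and its other probe read -0.06. Tk1 (-0.30, adjusted p = 0.00119) and Mcm2 (-0.19, adjusted p = 0.0392) were lower at 24 h, both were positive with spike-in scaling, and the Mcm2 call was lost in 5 of the 12 fits.

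**Figure D4:**
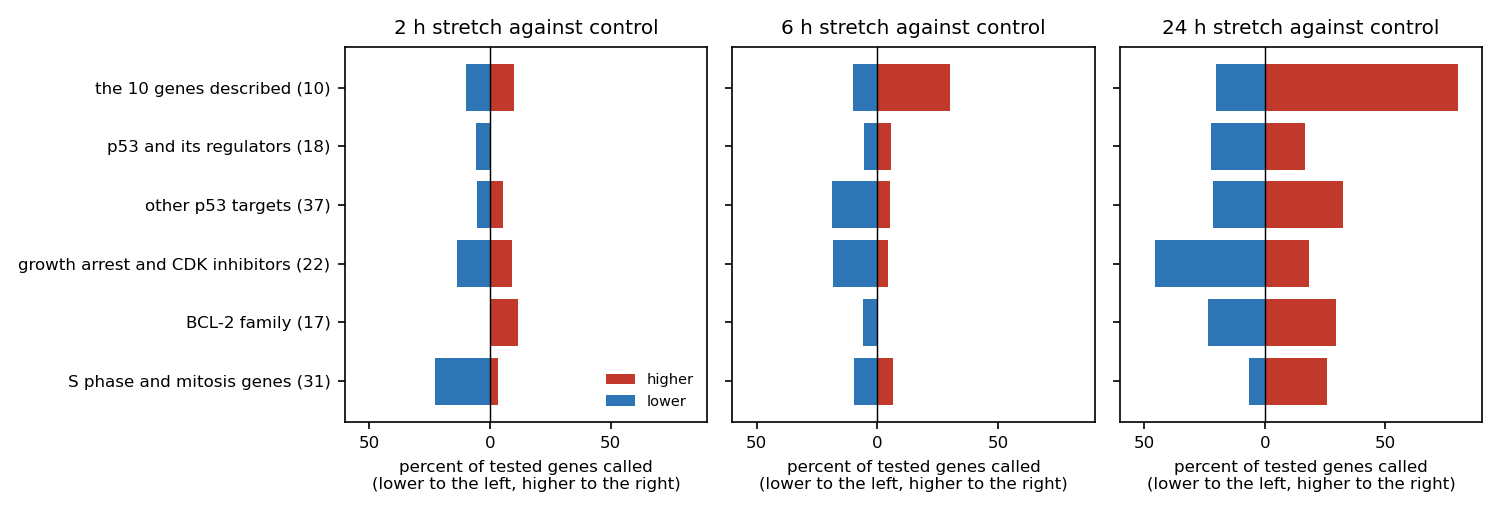
Share of tested genes called higher (right) or lower (left) than control at 2 h, 6 h and 24 h of stretch, for the 10 genes described and 5 lists of related genes; the number tested is in brackets and the horizontal axis is in percent. At 24 h the 10 genes have 8 calls higher and 2 lower, and the 37 other p53 targets 12 higher and 8 lower. Of all genes, 16% are called higher and 31.9% lower. Scaling each array to its median gives 20 higher and 3 lower for these 37, with 38.8% of all genes called higher.

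Markers of several cell types moved in the same arrays, and in bulk RNA fewer cells of a type and less RNA per cell cannot be told apart. All 8 cardiomyocyte markers passed the filter on dim probes, and their summed intensity was 1102000 to 1199000 at 24 h, against 1288000 to 1383000 in control cells, with 6 of 8 called lower and 1 (Nppa) higher. With array median scaling 3 of the 8 were called lower at 24 h, and with spike-in scaling none. Markers of other cells passed it too: the 5 tested of 7 macrophage and leukocyte markers summed to 832.7 to 834.7 at 24 h, against 2269 to 2369 in control cells, and all 5 were called lower, also under median and spike-in scaling. Of 8 fibroblast markers 7 were called lower at 24 h and none higher, and of 7 endothelial markers 6 were lower and none higher; with spike-in scaling none of either was called lower. The part of these cells in the changes of the 10 genes was not tested.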

How the data were processed

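Total RNA of 12 cultures was labelled and hybridised to rat 60-mer arrays, per the labels' protocols. Spot intensities (gProcessedSignal, background-corrected by the scanner software) were deposited by the authors in Agilent Feature Extraction files, version 11.0.1.1 per the file headers and 10.7.3.1 per the submitters' processing notes. Other columns used are the flags for outlier, saturated and well-above-background spots, also deposited in those files. The authors' deposited table of scaled intensities of the same arrays, with no scaling method named, served as an alternative.

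From these, outlier-flagged spots were dropped, the spots of a probe averaged, and log2 intensities scaled to each array's 75th percentile (1138 to 1672 before scaling). No spot was saturated. Scaled intensity is the same value on the linear scale, and it compares arrays, not genes. A probe was kept if well above background on all 3 arrays of a group (18997 of 30367), and the brightest kept probe stood for a gene. limma 3.58.1 in R 4.3.3 fitted all 14376 genes with 1 mean per group and was tested on simulated data. Genes are named through RefSeq accessions. The members and lists were chosen with earlier results of these data known. Genes named from the pathway lists are among the 3 called genes of largest change per list, direction and time, beside Mdm4 and Tp53inp2; not all of them are printed, and 1 is not reported here. The nearest genes are given for the 4 members of largest F. The number of arrays limits the precision. Alternatives covered background, scaling, filter, probe choice, slide, replicate number, the deposited table and each array left out.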

Additional observations from a re-analysis of the deposited data

Results flagged for a closer look

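The changes of the 10 genes differed between durations of stretch in 20 tests (limma, adjusted p below 0.05), comparing stretched arrays with each other. At 6 h against 2 h, 3 genes were higher: Aen by 0.27 on the log2 scale, Bbc3 by 0.25 and Mdm2 by 0.17. At 24 h against 6 h, 6 genes were higher and 1 lower: the log2 difference was 0.84 for Plk2, 0.39 for Gadd45a, 0.39 for Aen, 0.34 for Mdm2, 0.31 for Bbc3, 0.27 for Bax and -0.32 for Sesn1. At 24 h against 2 h all 10 differed: Plk2 by 1.00, Aen by 0.66, Gadd45a by 0.61, Bbc3 by 0.57, Mdm2 by 0.51, Bax by 0.31, Ccng1 by 0.18, Tp53inp1 by 0.17, Sesn1 by -0.34 and Cdkn1a (brighter probe) by -0.38. The other probe of Cdkn1a was higher at 24 h than at 2 h by 0.62 (limma with every kept probe tested on its own, adjusted p = 1.69e-04). Of all genes tested, 10.6% were called at 6 h against 2 h, 24.9% at 24 h against 6 h and 48.3% at 24 h against 2 h. With spike-in scaling 1 of the 10 genes was called at 24 h against 6 h. The 2 h and 24 h arrays lay on different slides. Within the second slide, the 3 arrays of 24 h differed from the single array of 6 h by 0.81 for Plk2, 0.42 for Aen, 0.35 for Mdm2, 0.31 for Bbc3, 0.30 for Gadd45a, 0.22 for Bax and -0.28 for Sesn1. These are the genes called at 24 h against 6 h, and the same arrays entered those calls. The directions within the slide are thus no separate test, and an effect of the slide was not tested.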

How the results depend on the processing

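The 24 h calls of Plk2, Mdm2, Aen and Tp53inp1 were kept in all 26 other settings that gave a value, and those of Bbc3, Bax, Ccng1 and Gadd45a in all but the slide as a fixed block; that of Sesn1 was lost with spike-in scaling alone. The count of members called at 24 h was 5 with the slide as a fixed block (4 against 2 h, 3 against 6 h and 4 by the F test), where fewer arrays inform the contrast, since no slide held both control and 24 h. The members called at 2 h numbered 2, but 1 with normexp background correction, array median scaling, quantile normalization, slide 1 only or every kept probe tested on its own, and 0 with spike-in scaling, no filter on dim probes, only the 2 groups fitted, the slide as a fixed block or the replicate block. Spike-in scaling gave 8 at 6 h, where it called 46.6% of all genes, and 1 between 24 h and 6 h (7.46% of all genes). Between 6 h and 2 h the 3 calls became 1 with no filter, the slide as a fixed block, the replicate block or the other probe of Cdkn1a, Mdm2 and Aen, and 0 with the 2 groups alone or slide 1 alone. Leaving out 1 array at a time gave 0 to 1 at 2 h, 3 to 5 at 6 h, 9 to 10 at 24 h, 0 to 3 between 6 h and 2 h, 4 to 7 between 24 h and 6 h (4 without the first 6 h array), 8 to 10 between 24 h and 2 h and 9 to 10 by the F test. The causes of these changes were not tested.

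Signs turned for Gadd45a at 2 h (0.013 with array median scaling, 0.12 with spike-in scaling, and -0.119 to 0.08 leaving out 1 array at a time, positive without the first control or the first 2 h array), Cdkn1a at 2 h (-0.05 without the first 2 h array), Aen at 2 h (-0.009 to 0.065 leaving out 1 array at a time, negative without 2 h replicate 3), Bbc3 at 6 h (-0.012 in the authors' deposited table), Sesn1 at 6 h (0.15 with spike-in scaling), Cdkn1a at 6 h (0.27 with spike-in scaling, 0.042 for the mean of its probes and 0.27 on its other probe) and Cdkn1a at 24 h (0.12, 0.20 and 0.71). The Cdkn1a call at 24 h was also lost without control replicate 1 (adjusted p = 0.0695) or 3 (0.0754), or 24 h replicate 2 (0.111), and with array median scaling (-0.11, adjusted p = 0.375). Of the genes named from the lists, leaving out 1 of the 12 arrays in turn ended the 2 h calls of Gadd45b 9 times, Gas2l1 8, Gas2 5, Ccnb2 3, Ccnb1 2 and Bik 2 times, the 6 h calls of Cdkn2d 10, Gadd45g 6, Bcl2l12 3 and Steap3 2 times, and the 24 h calls of Daxx 5 times and Tp53bp2 1 time. Spike-in scaling moved the median of all genes to 0.14 at 2 h, 0.40 at 6 h and 0.35 at 24 h, and array median scaling to 0.12 at 24 h. The median of the members lay 0.52 above that of all genes at 24 h, a distance that these 2 scalings cannot move, and 0.45 with quantile normalization. The members were chosen with earlier results of these data known, so this distance is a description and not a test. All genes called at 24 h numbered 6888, but 2044 with the slide as a fixed block; at 6 h 2430, but 6703 with spike-in scaling and 1357 on slide 1; at 2 h 1343, but 190 with spike-in scaling and 479 with 2 groups alone. Replicate numbers did not pair the samples: correlations of same-numbered deviations ran from -0.11 to 0.10 over 18 pairs, and the replicate block left 10 members called at 24 h. Dim probes have less precision, and the Sesn1 probe, spotted once, had no value in the authors' deposited table.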

Other observations

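Some listed genes moved early. At 2 h the mTORC1 inhibitor Ddit4 (0.41, adjusted p = 0.0171) was higher than control, while the DNA repair nuclease Ercc5 (-0.37, adjusted p = 0.00800) and the growth arrest genes Gas2 (-0.76 ± 0.19, adjusted p = 0.0328) and Gas2l3 (-0.61 ± 0.13, adjusted p = 0.0148) were lower. The other probe of Ddit4 was not called (0.39, adjusted p = 0.0916). Gas2 and Gas2l3 were dim, with scaled intensities of 74.14 and 74.35 on the first control array. At 6 h the p53 targets Tp53i11 (-0.44, adjusted p = 0.00469) and Steap3 (-0.41, adjusted p = 0.0140), a metalloreductase, were lower. Ier5 was higher at 6 h (0.27, adjusted p = 0.00238), but its other probe was not called (0.16, adjusted p = 0.139). With spike-in scaling the changes of Tp53i11 and Steap3 were positive. Bik, which was lower at 24 h, was higher at 2 h (0.34, adjusted p = 0.0234).
Smaller changes among the listed genes were those of Btg3 (0.32, adjusted p = 0.00105), Daxx (0.15, adjusted p = 0.0386) and Tp53bp2 (-0.26, adjusted p = 0.0138, positive with spike-in scaling) at 24 h, of Gas2l1 at 2 h (0.28, adjusted p = 0.0379), whose other probe read 0.007, and of Cdkn2d (-0.28, adjusted p = 0.0431), Bcl2l12 (-0.24, adjusted p = 0.0241) and Gas6 (-0.22, adjusted p = 0.00686) at 6 h, all 3 positive with spike-in scaling.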
